A study of Mus musculus with 6 samples.

Results

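Tppp3, Pdgfra, Dpp4, Pi16, Cd34, Ly6a, Dpt, Prg4 and Cd55 are genes of the fibroblasts that wrap and line tendons (paratenon and sheath) and of progenitor-like fibroblasts. These 9 genes were taken by name from the 54189 features of the RNA-seq count table, and all 9 were found there. RNA-seq and small RNA-seq covered the Achilles tendon of 4-week-old mice of 3 genotypes, with 1 library per genotype in each assay and 1 mouse per genotype by the study's supplementary text. The Control mouse carried floxed Dicer alleles and no Cre (Dicer f/f). The ScxHt mouse carried Cre knocked into 1 allele of Scleraxis (ScxCre/+ Knock In) and intact Dicer alleles (Dicer +/+). The Dicer cKO mouse carried both the same Cre knock-in and the floxed alleles (ScxCre/+ Knock In:Dicer f/f). Control and Dicer cKO therefore share the floxed alleles, ScxHt and Dicer cKO share the Cre and the loss of 1 Scx copy, and ScxHt differs from Control in both. Recombination follows Scx expression, so cells of the tissue outside that lineage keep Dicer. The paper proposes that recombination was also inefficient and mosaic among Scx-expressing cells, so some of those may keep Dicer too.

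A tendon is not made of tenocytes alone. Layers of looser connective tissue surround the collagen fascicles, and their fibroblasts differ in gene use from the tenocytes within. Tppp3 marks sheath cells, among which Tppp3+ Pdgfra+ cells have been described as tendon stem cells. Dpp4, Pi16, Cd34 and Ly6a mark adventitial fibroblasts of many tissues, which are regarded as a progenitor-like pool, and Prg4 and Cd55 are genes of the lining cells that face a lubricated surface. Dicer is the ribonuclease that cuts precursor hairpins into mature miRNAs.

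With 1 library per genotype no spread between animals is known, so no p-value is given. The ratios below are of counts after scaling, with 95% intervals that cover counting error only. A gene was called lower when its mean scaled count (baseMean) was above 50 and its ratio lay below 0.60, and called higher when its ratio lay above an upper threshold near the inverse of 0.60. The study's methods set these limits. All 9 genes had a mean scaled count above 50 in every comparison. Libraries held 14959399 to 16244232 counts, of which mitochondrial genes took 2.12% to 4.43%. Dicer1, the targeted gene, had 1919 counts in Control, 2025 in ScxHt and 1621 in Dicer cKO, a Dicer cKO/Control ratio of 0.877, so the count was only a little lower in the library labelled Dicer cKO. This count covers the whole gene, of which Cre removes only the floxed segment, so it checks the label weakly. Scx, which carries the Cre, had 1055, 686 and 371 counts in the same order.

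The sheath and progenitor genes were lower in the Dicer cKO library than in both others. Against Control, the ratios of the 9 genes ran from 0.481 (Prg4) to 0.905 (Cd34), with a median of 0.616, while the median over all 13404 genes tested was 0.977. Prg4, Cd55 and Ly6a were below 0.60, 3 of the 9, where 4.18% of all genes tested were that low, and 0 of the 9 were above the upper threshold (3.87% of all genes). Each of the 9 intervals lay below 1, as did 28.4% of all genes' intervals. The whole interval lay below 0.60 for 2 of the 3, Prg4 and Cd55, as it did for 182 of the 13404 genes tested. Against ScxHt, 5 of the 9 were below 0.60 (Prg4, Pdgfra, Dpt, Cd55 and Pi16), where 5.70% of all genes were, 0 were above the upper threshold (7.66% of all genes), and again all 9 intervals lay below 1 (30.6% of all genes). The median ratio of the 9 was 0.598 there, beside 0.976 over all genes tested. The ScxHt library itself was not low: against Control, 0 of the 9 were called in either direction (4.71% of all genes lay below 0.60 and 3.03% above the upper threshold). The intervals of Prg4, Pdgfra, Dpt and Cd34 lay above 1 (26.4% of all genes) and that of Tppp3 below 1 (23.7%). The intervals of Dpp4, Pi16, Ly6a and Cd55 held 1. These comparisons share libraries, so a high or low value in 1 library enters both comparisons that use it. Fewer cells of a type and less RNA per cell cannot be told apart in tissue RNA.

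**Figure D1:**
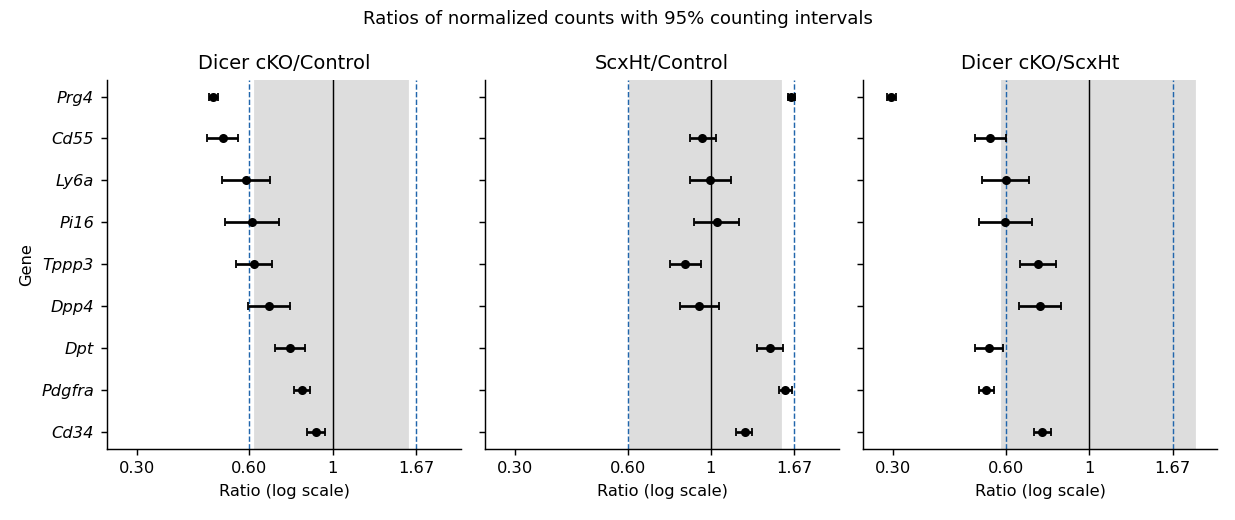
Ratio of scaled counts (log axis) of the 9 genes in each pair of libraries, with points for ratios, bars for 95% counting intervals, grey bands for the 5th to 95th percentile of all genes tested, and dashed lines at both thresholds. All 9 points lie left of 1 in both comparisons of the Dicer cKO library, and Prg4 is the lowest in each, at 0.481 and 0.297.

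The levels per length put Prg4 far above the other markers. Prg4 had an RPKM (reads per kilobase of feature, scaled to library total) of 210 in Control, 371 in ScxHt and 106 in Dicer cKO, the 115th, 71st and 231st highest of the features. Dpt came second in every library, with RPKM of 37.4, 58.0 and 30.1. Pi16 and Dpp4 were the lowest in every library, between 3.91 and 6.82 RPKM, and their counting intervals overlapped each time. The RPKM of Pi16 imply a length of 3987 bases where GENCODE vM21 has 6364 exon bases, and with the latter Pi16 came after Dpp4 in all 3 libraries. Cd55 stood just above that pair in all 3 libraries. The order in between was not the same: Tppp3 and Ly6a preceded Cd34 and Pdgfra in Control, whereas Pdgfra followed Dpt in ScxHt and Cd34 did so in Dicer cKO. Neighbours whose intervals overlapped were Tppp3 and Ly6a, and Cd34 and Pdgfra, in Control, then Cd34, Ly6a and Tppp3 in ScxHt, and Pdgfra, Tppp3 and Ly6a in Dicer cKO.

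**Figure D2:**
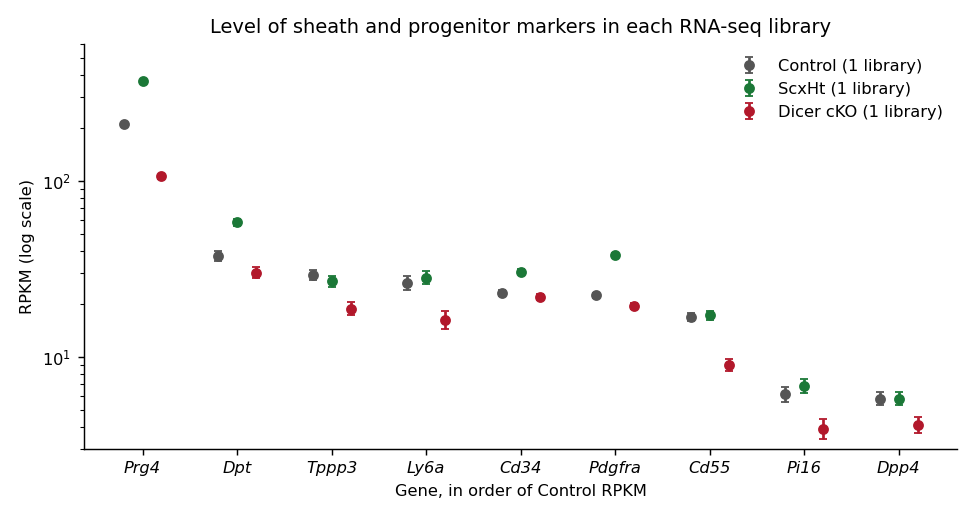
RPKM (log axis) of the 9 genes in the Control, ScxHt and Dicer cKO libraries, 1 library each, with bars for 95% counting intervals, some of them smaller than the points. The Dicer cKO point is the lowest of the 3 for every gene, and the ScxHt point stands clearly above Control for Prg4, Dpt, Cd34 and Pdgfra.

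Of the lubricating and lining genes, Prg4 encodes lubricin, the proteoglycan that lets tendon and joint surfaces glide. It lies at chr1:150449412-150466165 on the minus strand of GRCm38. Its counts were 14611 in Control, 25054 in ScxHt and 6761 in Dicer cKO. The 3 libraries were far apart: the Dicer cKO/Control ratio was 0.481 (0.467 to 0.495), the ScxHt/Control ratio 1.64 (1.61 to 1.68) and the Dicer cKO/ScxHt ratio 0.297 (0.289 to 0.305). With the size factors Prg4 was the farthest from 1 of the 9 in all 3 comparisons, whereas with pan-fibroblast scaling Cd34 (1.44) was in Dicer cKO/Control and Tppp3 (0.676) in ScxHt/Control. Its ratio to Pdgfra within a library, which no scaling between libraries can alter, was 9.37 by RPKM in Control, 9.74 in ScxHt and 5.44 in Dicer cKO.

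Cd55 encodes decay-accelerating factor, a membrane protein that shields cells from complement, and lies at chr1:130439027-130462744 on the minus strand. It had 1325 counts in Control, 1313 in ScxHt and 650 in Dicer cKO. Control and ScxHt were alike in level, with a ratio of 0.95 (0.879 to 1.03), and the Dicer cKO library was lower, at 0.509 (0.463 to 0.560) of Control and 0.545 (0.496 to 0.60) of ScxHt. So the lining genes Prg4 and Cd55 were both called lower against Control and both called lower against ScxHt, yet they parted in ScxHt, where the RPKM ratio of Prg4 to Cd55 was 21.6 beside 12.5 in Control and 11.8 in Dicer cKO.

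Among the sheath and stem cell genes, Tppp3 encodes a protein that binds and bundles microtubules (chr8:105467493-105471526, minus strand). It had 873 counts in Control, 780 in ScxHt and 518 in Dicer cKO. It was the only one of the 9 whose ScxHt/Control interval lay below 1, at 0.856 (0.776 to 0.944). Its Dicer cKO/Control ratio of 0.616 (0.552 to 0.688) missed the threshold of 0.60, as did its ratio to ScxHt of 0.732 (0.654 to 0.819).

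Pdgfra, the receptor for PDGF-A and PDGF-C dimers that marks fibroblasts widely, lies at chr5:75152292-75198215 on the plus strand. It had 3651 counts in Control, 6025 in ScxHt and 2913 in Dicer cKO. ScxHt was the library that stood apart, at 1.58 (1.52 to 1.65) of Control, while Dicer cKO was 0.829 (0.789 to 0.870) of Control. The call against ScxHt, at 0.533 (0.509 to 0.557), therefore sets a lower Dicer cKO value against a higher ScxHt value. Tppp3 per Pdgfra by RPKM was 1.30 in Control, 0.702 in ScxHt and 0.965 in Dicer cKO. Because Pdgfra marks fibroblasts widely, this ratio in tissue RNA does not measure the cells that carry both markers.

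Dpt encodes dermatopontin, a small matrix protein that binds decorin and collagen, and lies at chr1:164796644-164824266 on the plus strand. Its counts were 1048, 1578 and 776 in Control, ScxHt and Dicer cKO. It followed Pdgfra closely: Dpt per Pdgfra by RPKM was 1.52 in ScxHt and 1.55 in Dicer cKO, which is 0.912 (0.835 to 0.997) and 0.928 (0.836 to 1.03) of the Control value. Dpt itself stood at 1.44 (1.33 to 1.56) of Control in ScxHt. In Dicer cKO it stood at 0.769 (0.700 to 0.845) of Control and 0.542 (0.497 to 0.591) of ScxHt.

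The progenitor surface markers were less abundant. Dpp4 (CD26), a membrane dipeptidyl peptidase, lies at chr2:62330073-62412231 on the minus strand and had 594 counts in Control, 577 in ScxHt and 388 in Dicer cKO. Pi16, peptidase inhibitor 16, lies at chr17:29317680-29330593 on the plus strand and had 397, 429 and 233 counts. Both were near their Control level in ScxHt, at 0.931 (0.829 to 1.05) for Dpp4 and 1.04 (0.901 to 1.19) for Pi16, and below it in Dicer cKO, at 0.678 (0.595 to 0.772) and 0.609 (0.516 to 0.718). Against ScxHt, Pi16 lay just inside the threshold at 0.598 and Dpp4 outside it at 0.741. TMM scaling put Pi16 at 0.605, outside it. Dpp4 is also a T cell antigen, and the 7 lymphocyte markers summed to 13, 9 and 6 counts in Control, ScxHt and Dicer cKO, with Cd3d, Cd3g and Nkg7 at 0 in all 3 libraries.

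Ly6a encodes SCA-1, a GPI-anchored antigen of mouse stem and endothelial cells (chr15:74994877-74998031, minus strand), and had 515, 536 and 292 counts in Control, ScxHt and Dicer cKO. Control and ScxHt hardly differed, with a ratio of 0.997 (0.882 to 1.13). The Dicer cKO library stood at 0.589 (0.508 to 0.681) of Control and 0.60 (0.519 to 0.694) of ScxHt, below the threshold in the first and just above it in the second before rounding. The call against Control does not hold when libraries are scaled to total counts, which gave 0.616. That scaling put Ly6a below the threshold against ScxHt, at 0.574. Cd34, a sialomucin of fibroblast, blood vessel and haematopoietic progenitor surfaces, lies at chr1:194938819-194961279 on the plus strand, with 2727, 3490 and 2377 counts. Its ScxHt value was the high one, at 1.23 (1.17 to 1.29) of Control, and its Dicer cKO value was the closest to Control of the 9, at 0.905 (0.856 to 0.957).

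Ly6a and Cd34 are also made by endothelial cells, so endothelial markers are given beside them. All 12 endothelial markers (Pecam1, Cdh5 and others) passed the filter, and 0 were called in Dicer cKO/Control (4.18% of all genes were called lower and 3.87% higher). Their median ratio was 1.01, with summed RPKM of 160 in Control and 177 in Dicer cKO. In ScxHt all 12 endothelial intervals lay below 1 with a median ratio of 0.658 and a summed RPKM of 115, whereas Ly6a was level and Cd34 was higher. Ly6a per Cd34 by RPKM was 1.14, 0.929 and 0.744 in Control, ScxHt and Dicer cKO.

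Other genes of the same cell layers gave a mixed picture. Among 19 adventitial fibroblast genes, all of which passed the filter, 8 were below 0.60 in Dicer cKO/Control and 0 were above the upper threshold. Of all genes tested 4.18% were below and 3.87% above, shares that stand beside the Dicer cKO/Control calls of every list below. The list's median ratio was 0.613, beside 0.977 over all genes. Efhd1, a mitochondrial calcium-binding protein, had 189, 139 and 73 counts in Control, ScxHt and Dicer cKO and the lowest ratio, 0.401. Pcolce2, an enhancer of procollagen C-proteinase, followed at 0.436. The top of the list held Dpep1, a membrane dipeptidase, at 1.32 and Ebf2, a transcription factor, at 1.27. Against ScxHt 10 of the 19 were below 0.60 (5.70% of all genes), and Ebf2 was above the upper threshold at 1.88 (7.66% of all genes). The median there was 0.579. In ScxHt/Control 0 were called (4.71% of all genes were below and 3.03% above), and the median was 1.12.

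The other synovial lining genes spread to both sides of their Control level. Of 11, 10 passed the filter, with 2 below 0.60, 1 above the upper threshold and a median Dicer cKO/Control ratio of 0.796. Htra4, a secreted serine protease, had 385 counts in Control, 506 in ScxHt and 34 in Dicer cKO, a ratio of 0.0917 (0.0626 to 0.130) to Control. It shares 32.9% of its exon bases with Gm16933 on the other strand, and where strand was not used the reads of this pair cannot be told apart. Creb5, a transcription factor of Prg4-producing cells, was at 0.412. At the other end stood Tspan15, a tetraspanin, at 1.77 and Vcam1, an adhesion molecule, at 1.61. Has1, a hyaluronan synthase named here after its values were seen, had 69 counts in Control, 17 in ScxHt and 12 in Dicer cKO and did not pass the filter.

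The general stem and progenitor cell markers lay nearer to all genes. In Dicer cKO/Control, 11 of 12 passed, 1 was below 0.60, 0 were above the upper threshold, and the median ratio was 0.879. Nt5e (CD73), a surface nucleotidase, was the lowest at 0.552, followed by Hic1, a repressor of mesenchymal progenitors, at 0.615. Gli1, a target of hedgehog signalling, had 48, 67 and 73 counts in Control, ScxHt and Dicer cKO, the highest ratio at 1.58, and Mcam (CD146) was at 1.33.

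For Pdgfra, the PDGF system was looked at from its ligands on. All 6 genes of the list passed, and 2 ligands were below 0.60 in Dicer cKO/Control. Pdgfc had 418 counts in Control, 407 in ScxHt and 171 in Dicer cKO, a ratio of 0.425, and Pdgfa had 430, 432 and 228 counts, a ratio of 0.551. Both are ligands of the receptor that Pdgfra encodes. Pdgfd, a ligand of the beta receptor, was at 1.02, and the receptor-like gene Pdgfrl at 0.910. The list's median was 0.809, and in ScxHt/Control it was 0.961.

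For Cd55, 7 of the 10 complement regulators passed, with 2 below 0.60, 1 above the upper threshold and a median of 0.694 in Dicer cKO/Control. Cd59a, which blocks the membrane attack complex, was at 0.502 and Clu, a secreted inhibitor of that complex, at 0.516. Cd46, a cofactor for complement cleavage, had 88, 74 and 143 counts and a ratio of 1.69, and Vtn, vitronectin, was at 1.37. The near copy Cd55b had 55, 78 and 29 counts, below the filter in that comparison, and reads that fit both Cd55 and Cd55b could have been split in counting.

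Close relatives of the 9 genes were looked at in the same way. Of 16 paralogs 11 passed, 1 was below 0.60 and 0 were above the upper threshold in Dicer cKO/Control, with a median of 0.814. Crispld2, of the same CAP superfamily as Pi16, was the lowest at 0.483, and Ly6c1, a relative of Ly6a, was next at 0.707, while Dpp8 and Podxl, relatives of Dpp4 and Cd34, were the highest at 0.997 and 0.938. Of the 9 other Ly6 genes, Ly6c1, Ly6c2 and Ly6e passed, with 0 called and ratios of 0.707 to 0.920. The difference between the 9 genes and their relatives was not tested.

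**Figure D3:**
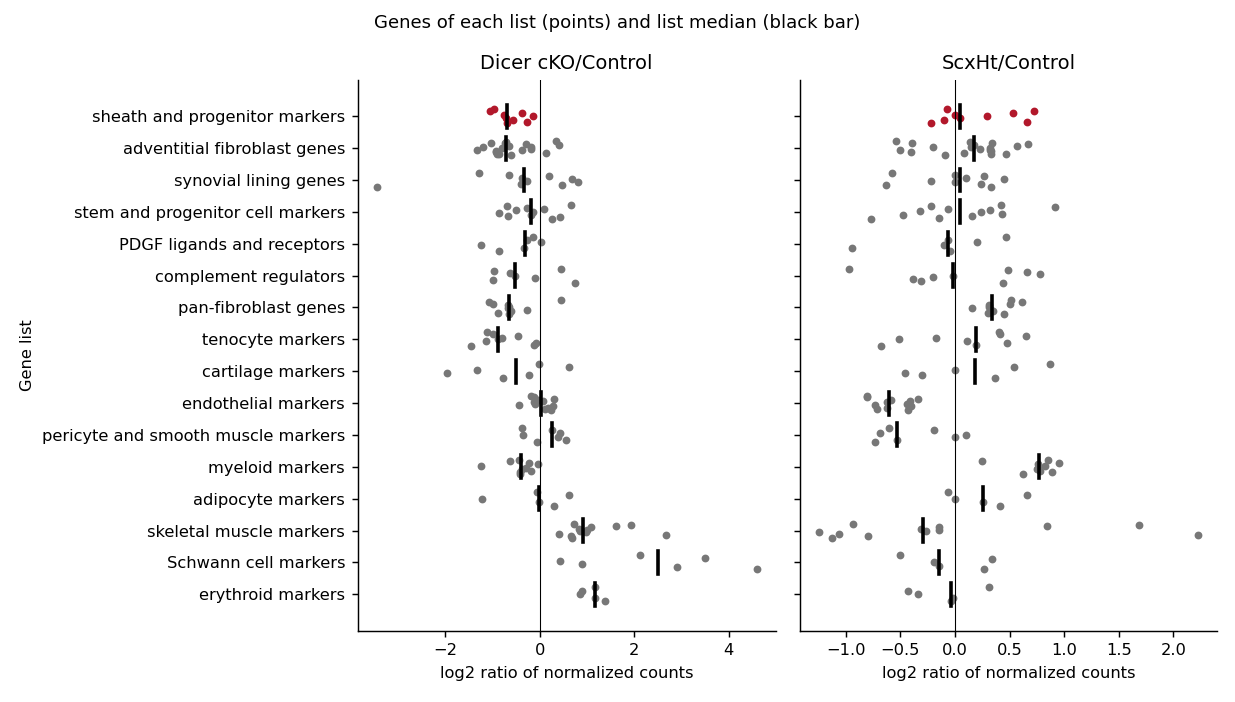
log2 ratio of scaled counts of the genes of each list (points, red for the 9 sheath and progenitor markers) with the list median (black bar), for Dicer cKO/Control and ScxHt/Control, for genes with a mean scaled count above 50. In Dicer cKO/Control the 9 markers and the adventitial genes have medians of -0.70 and -0.71, beside -0.66 for pan-fibroblast genes, 0.02 for endothelial and 0.91 for skeletal muscle markers, and the 2 panels have different horizontal scales.

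The low level of the 9 genes in Dicer cKO was shared with fibroblast genes at large. The 10 pan-fibroblast genes (Col3a1, Dcn and others) had a median Dicer cKO/Control ratio of 0.631, with 3 below 0.60, and a ScxHt/Control median of 1.27 with all 10 intervals above 1. The 9 tenocyte markers had a Dicer cKO/Control median of 0.542 with 6 below 0.60, from 0.365 (Scx) to 0.948 (Tnmd). The makeup of the libraries also moved. Skeletal muscle markers were above the upper threshold in 8 of 12 genes in Dicer cKO/Control, with summed RPKM of 5552, 4078 and 10115 in Control, ScxHt and Dicer cKO. Schwann cell markers were above the upper threshold in 5 of the 6 that passed, with summed RPKM of 91.8, 122 and 280, and all 5 erythroid markers were above the upper threshold. Myeloid markers were above the upper threshold in 8 of 10 genes in ScxHt/Control (3.03% of all genes), with summed RPKM of 100, 187 and 78.2. Pericyte, perineurial and adipocyte markers had Dicer cKO/Control medians of 1.21, 0.946 and 0.993, and the cartilage markers 0.704. The part of these shifts in the values of the 9 genes was not tested.

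When the libraries were scaled to the 10 pan-fibroblast genes in place of the size factors, the 9 genes no longer stood below Control as a group. The median Dicer cKO/Control log2 ratio of the 9 was then -0.03, still below the median of 0.63 over all genes. Of the 9, 0 were below 0.60, but so were only 55 of all genes, while 5079 were above the upper threshold. The values of the 9 ran from 0.762 (Prg4) and 0.808 (Cd55) to 1.22 (Dpt), 1.31 (Pdgfra) and 1.44 (Cd34). In Dicer cKO/ScxHt Prg4 alone of the 9 stayed below 0.60, at 0.571, where 28 of all genes were below. The other 8 were at 1.02 to 1.44. The intervals of Tppp3, Dpp4 and Cd34 lay above 1 there, and those of Pdgfra, Pi16, Ly6a, Dpt and Cd55 held 1. In ScxHt/Control the values ran from 0.676 (Tppp3) to 1.30 (Prg4). This scaling moves the median log2 ratio of all genes by 0.67 in Dicer cKO/Control, by -0.34 in ScxHt/Control and by 0.95 in Dicer cKO/ScxHt. The 10 reference genes themselves spread from 0.478 (Fbln1) to 1.37 (Mfap4) in Dicer cKO/Control with the size factors, and all 9 markers lay inside that range.

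**Figure D4:**
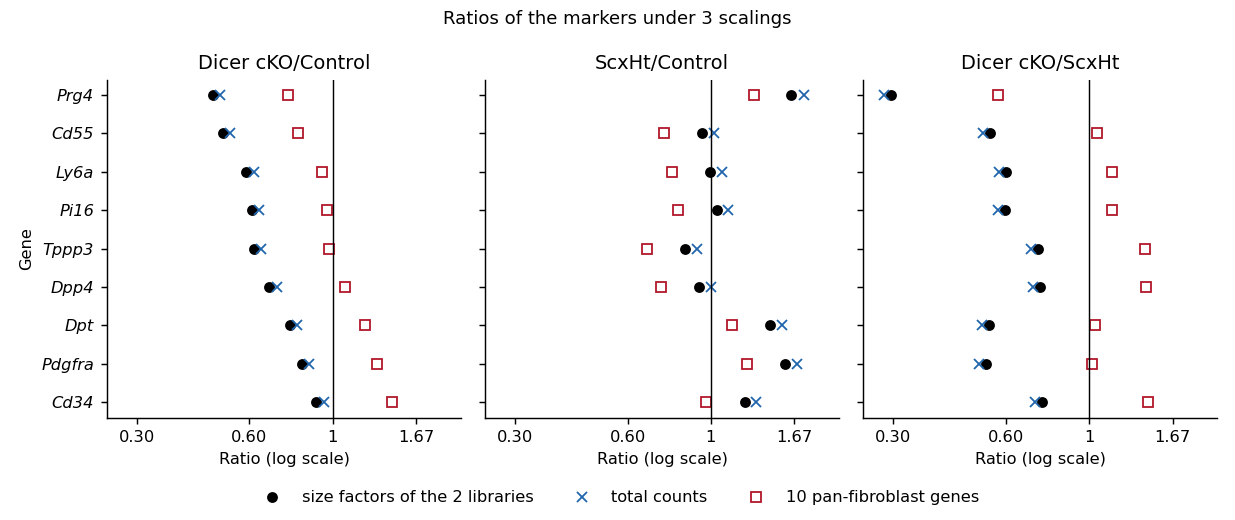
Ratio (log axis) of the 9 genes for 3 comparisons under 3 scalings of the libraries: filled circles for size factors of the 2 libraries, crosses for total counts and open squares for 10 pan-fibroblast genes. Circles and crosses lie close together, while the squares are shifted, so that in Dicer cKO/ScxHt only Prg4 remains left of 1, at 0.571.

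Genes nearest in pattern were sought by the distance between pairs of log2 ratios (ScxHt/Control and Dicer cKO/Control) among 8404 genes with a mean scaled count above 200. The pair nearest to Pdgfra was Fcgr2b, at 1.60 and 0.819, and Col14a1, at 1.59 and 0.814. Nearest to Dpt were Manf and Erf, to Ly6a Arhgdib and Rnf130, to Pi16 Kifc3 and Adamtsl1, and to Cd34 Brat1 and Ap1m1. For Tppp3 they were RP23-398D18.4 and Actg1, for Dpp4 Minos1 and RP23-198F11.2, and for Cd55 AC157667.1 and Sgms2. Cd34 had 304 genes within a distance of 0.1 and Cd55 had 14, whereas Prg4 had 0, its nearest being Fbln1 at 0.108 and Sod3 at 0.129. The likeness rests on 3 libraries.

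The 9 genes lie on 6 chromosomes, with Dpt, Prg4, Cd34 and Cd55 on chromosome 1, where 5.98% of the 11325 tested genes found in the annotation lie. No single gene on the opposite strand overlaps more than 4.77% of the exon bases of a member (Tpr over Prg4), and Pdgfra has a pair of such genes, Gm42802 over 4.55% and Gm42803 over 1.66%, and the strand setting of the counting is not given in the sources used here.

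Because Dicer makes miRNAs, the 3' UTRs of the 9 genes were searched for matches to the seeds (bases 2 to 8) of 13 miRNA families. The search used the longest annotated 3' UTR in GENCODE vM21 and counted 8mers (seed match followed by A) and 7mers (seed match alone). Of the 9 genes 5 held an 8mer (Pdgfra, Dpp4, Pi16, Dpt and Cd55), where 42.1% of 10961 genes did. Prg4, with a 3' UTR of 572 bases, held no match of either kind, and Pdgfra, with 3115 bases, held 8, for 6 families. Tppp3, Ly6a and Cd34 held 7mers and no 8mer. The median 3' UTR had 1510 bases. The families with an 8mer in a member are shown with their mature sequences (RefSeq, GRCm38.p6), seed in capitals, to be read against the sites that follow.

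mmu-miR-24-3p: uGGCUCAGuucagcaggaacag
mmu-miR-199a-3p: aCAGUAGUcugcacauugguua
mmu-miR-34a-5p: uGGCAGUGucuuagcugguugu
mmu-miR-135a-5p: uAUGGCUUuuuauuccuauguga
mmu-miR-206-3p: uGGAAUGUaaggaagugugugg

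Their 8 sites are given 5' to 3' on the gene's strand in GRCm38, with the 8mer in capitals. Pi16 has 3 of them for miR-24, which makes it the member with the most sites for 1 family.

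Pi16, miR-24, chr17:29329013-29329020: cctccaactctCTGAGCCAtcccattcctt
Pi16, miR-24, chr17:29329813-29329820: cttggtggttaCTGAGCCAattggccgacc
Pi16, miR-24, chr17:29330117-29330124: accttcacccgCTGAGCCAtttcatgggcc
Pdgfra, miR-24, chr5:75197181-75197188: aagtgtgaagaCTGAGCCAgattggccaat
Cd55, miR-199a-3p, chr1:130440273-130440280: aagtatataaaACTACTGAtaatacttcta
Dpp4, miR-34, chr2:62332121-62332128: gaagagctgttCACTGCCAgactggcacag
Dpt, miR-135a, chr1:164824106-164824113: aatatccctagAAGCCATAgggacgccatc
Dpt, miR-206, chr1:164823450-164823457: tccctttcaacACATTCCAagacaatcatg

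The 8mer of miR-24 is common, being in 9.77% of the 10961 3' UTRs, that of miR-199a-3p in 3.02%, that of miR-34 in 7.23%, that of miR-135a in 3.96% and that of miR-206 in 5.05%. In small RNA-seq, the most counted locus of miR-24 had 32083 counts in Control, 36750 in ScxHt and 30239 in Dicer cKO, a Dicer cKO/Control ratio of 1.08 (1.06 to 1.10). Mir199a-2 had 559555, 362563 and 361918 counts, a ratio of 0.741 (0.738 to 0.744). The muscle miRNA locus Mir206 had 310922, 134734 and 408434 counts, a Dicer cKO/Control ratio of 1.51. Mir34a had 753, 722 and 953 counts, a ratio of 1.45 (1.32 to 1.60), and Mir135a-2 had 41, 13 and 16, a Dicer cKO/Control ratio of 0.447 (0.234 to 0.814). How reads that fit several loci of a family were counted is not given in the sources used here. These counts are per locus, so they are not values of the whole family or of the mature sequence shown. The match is a matter of letters, and binding was not measured.

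Promoters were available for 6 of the 9 genes (RefSeq, GRCm38.p6, 300 bases each, from upstream of the start to just past it). The Pi16 window, chr17:29318632-29318931, lies inside the gene as GENCODE vM21 places it, so its motifs are not those at the gene start given above. They were searched on both strands for the E-box CANNTG and its form CATCTG, the TATA box TATAAA, the GC box GGGCGG, the AP-1 motif TGANTCA, the CRE motif TGACGTCA and the CCAAT box. Scleraxis is a basic helix-loop-helix factor, a class that binds E-boxes. The promoters of Dpt and Cd55 are shown as those with the most E-boxes and with the only GC boxes of the 6, and capitals mark every match.

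Dpt, chr1:164796413-164796712, plus strand: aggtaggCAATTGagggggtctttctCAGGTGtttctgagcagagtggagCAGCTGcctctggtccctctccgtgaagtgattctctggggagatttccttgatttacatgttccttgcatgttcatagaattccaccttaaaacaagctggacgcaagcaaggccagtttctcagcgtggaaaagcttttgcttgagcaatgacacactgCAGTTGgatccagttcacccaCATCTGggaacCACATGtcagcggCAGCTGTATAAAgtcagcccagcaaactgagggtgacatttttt
Cd55, chr1:130462695-130462994, minus strand: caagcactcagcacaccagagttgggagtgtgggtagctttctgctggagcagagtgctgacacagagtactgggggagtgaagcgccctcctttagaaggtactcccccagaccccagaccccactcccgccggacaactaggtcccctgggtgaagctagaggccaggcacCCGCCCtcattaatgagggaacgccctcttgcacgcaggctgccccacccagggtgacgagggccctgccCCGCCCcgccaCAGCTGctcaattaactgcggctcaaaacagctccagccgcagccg

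The Dpt promoter held 7 E-boxes, 1 of them CATCTG, and a TATA box, in 48.7% G and C. The Cd55 promoter held 1 E-box and 2 GC boxes in 63.3% G and C. Pdgfra had 2 E-boxes including 1 CATCTG, Dpp4 and Pi16 had 1 each, and Cd34 had 0 of the motifs searched. The ScxHt/Control ratio was 1.44 for Dpt with its 7 E-boxes, 1.58 for Pdgfra with 2 and 1.23 for Cd34 with 0. For the genes with 1 E-box it was 0.95 (Cd55), 0.931 (Dpp4) and 1.04 (Pi16). A link between E-boxes and these ratios was not tested. Of 32851 promoters 72.3% held at least 1 E-box, 17.2% CATCTG, 13.6% TATAAA, 35.7% a GC box, 7.81% the AP-1 motif, 1.79% the CRE motif and 37.4% a CCAAT box, so an E-box by itself is common.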

How the data were processed

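Total RNA of the Achilles tendon was sequenced as RNA-seq and small RNA-seq, 1 library per genotype. The authors trimmed adaptors, mapped the reads to GRCm38 (mm10) with TopHat and Bowtie2 and counted them per gene with HTSeq, and the raw counts were deposited. The RPKM values were made by the authors from those counts, feature length and library total. Versions, annotation release and strand setting are not given in the sources used here. Of the 54189 features, 463 lines repeated an earlier line and were dropped.

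Size factors came from DESeq2 1.42.0 (R 4.3.3) on the 2 libraries of each comparison. Ratios between libraries, their 95% Clopper-Pearson intervals and exact Poisson intervals of RPKM were computed in Python 3.11.15 with scipy 1.17.1. For the change between libraries in the ratio of 2 genes, the 95% interval used a normal approximation on the log scale. Genes with a baseMean above 50 were called below 0.60 or above a threshold near its inverse, with no p-value; the limits follow the study's methods. On simulated counts with 3 comparisons, all 3-fold changed genes with a baseMean above 50 were called (188 in Dicer cKO/Control, 192 in ScxHt/Control, 193 in Dicer cKO/ScxHt). Of the unchanged genes above that minimum, 7, 9 and 6 were called in the same order. The simulation held counting error only, without spread between animals or dissections, and used a plain median scaling. It checks the arithmetic and gives no error rate for calls between single libraries. Alternatives were TMM (edgeR 4.0.16), total counts with and without features above 1%, size factors over all 3 libraries, pan-fibroblast scaling, a pseudocount of 1, other baseMean minimums and other thresholds.

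The members and the 19 other lists were chosen with earlier results of these data known. Named genes are the members, Dicer1, Scx, the 2 genes at each end of a described list by Dicer cKO/Control ratio, and the 2 genes nearest in pattern to a member; others were named after their values were seen. Genes were placed with GENCODE vM21. Some miRNA families of the planned search were not analysed here.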

Additional observations from a re-analysis of the deposited data

How the results depend on the processing

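With 1 library per genotype no replicate could be left out. No paired analysis was possible because each comparison has 1 library a side, although the labels give the same sample numbers to the RNA-seq and small RNA-seq libraries. Scaling to pan-fibroblast genes mattered most: the members below the threshold became 0 in Dicer cKO/Control (median log2 ratio -0.03) and 1 in Dicer cKO/ScxHt (median 0.20, a change of sign), and the ScxHt/Control median became -0.29. Under it the called Dicer cKO/ScxHt ratios of Pdgfra (1.02), Pi16 (1.15), Dpt (1.04) and Cd55 (1.05) lay above 1 with intervals that hold 1, since this scaling shifts every gene alike. Ly6a lost its call against Control with total counts (0.616), and Pi16 lost its call against ScxHt with TMM (0.605) and with size factors over all 3 libraries (0.602). Against ScxHt, Ly6a gained a call with total counts (0.574) and with total counts without features above 1% (0.592). The members below the threshold there were then 6. With thresholds of 2 and 0.5, 1 member (Prg4) stayed below in Dicer cKO/Control and 1 in Dicer cKO/ScxHt. With total counts, 2 members passed the upper threshold in ScxHt/Control, Prg4 at 1.77 and Pdgfra at 1.70. The remaining 85 recomputed counts and medians of the members stayed within 1.5 times the count or 1 counting interval of the value reported.

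Counts over all genes moved more. Dicer cKO/Control had 560 genes below and 519 above the thresholds, ScxHt/Control 634 and 408, and Dicer cKO/ScxHt 767 and 1031. In the same order they were 55 and 5079, 1836 and 92, and 28 and 9340 with pan-fibroblast scaling, and 182 and 164, 267 and 73, and 300 and 568 when the whole interval had to pass. With a minimum baseMean of 10 they were 1425 and 1555, 1588 and 1224, and 1547 and 2163, with 200 they were 237 and 160, 283 and 85, and 383 and 519, and with no minimum 5457 and 5347, 5496 and 5160, and 5627 and 5956. With thresholds of 2 and 0.5 they were 214 and 214, 288 and 124, and 316 and 605. With total counts they were 438 and 667, 456 and 640, and 962 and 897, so the balance of lower and higher calls turned in all 3 comparisons. The Dicer cKO/Control balance also turned with TMM (512 and 562) and with size factors over all 3 libraries (538 and 563). Total counts without features above 1% turned it as well (506 and 569). Depth limits the weakest members most: Pi16, with 233 to 429 counts, had the widest intervals.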
